A study of Mus musculus with 4 samples.

Results

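The genes described here encode the CatSper calcium channel of the sperm tail, a potassium channel of sperm and a voltage-gated proton channel. They were chosen by name as 10 symbols of a fixed list, and all 10 were found among the 25965 genes of the deposited table. Catsper1, Catsper2, Catsper3 and Catsper4 encode the pore subunits. Catsperb, Catsperg1, Catsperg2 and Tmem146 encode accessory subunits, and Tmem146 is the older symbol of Catsperd. Kcnu1 encodes the pH-sensitive potassium channel of sperm and Hvcn1 a voltage-gated proton channel. All 10 passed the filter of 1 RPM, a unit of reads scaled to library depth, in at least 2 libraries and were among the 15888 genes tested.

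CatSper is a calcium channel of the flagellum whose 4 different pore proteins surround a single pore and are held in a large complex with accessory proteins. It opens as the inside of the sperm becomes alkaline, and mouse sperm without it are motile but cannot hyperactivate. The transcripts are made in meiotic and haploid germ cells of the testis, well before the tail is used. Transcript levels do not measure channel current.

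Round spermatids were sorted by flow cytometry from the testis of ICR mice, and their messenger RNA was amplified with the full-length Smart-seq2 protocol. The 2 control libraries came from cells heterozygous for Wfdc15a (genotype +/-), so the controls carry an altered allele too, and the other 2 from cells labelled Wfdc15a-/-, called labelled knockout below. No age, no number of animals and no description of the altered allele are given in the labels. Wild-type controls named in the design text were not analysed here. The labels do not tie replicates to different animals, so a p-value here reflects only how far these libraries spread, and that spread may be technical.

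Depth, recovered from the steps of the deposited values, was 5774112 and 33853604 reads for heterozygous libraries 1 and 2 and 21160061 and 11268909 reads for labelled knockout libraries 1 and 2, a 5.86-fold range. Every library held reads of Wfdc15a itself: the heterozygous ones had 121 and 85.2 RPM, those labelled knockout 82.6 and 59.5 RPM (log2 difference -0.53, SE 0.29, limma adjusted p = 0.647). Markers of round spermatids, such as Acrv1 and Spaca1, were all detected and summed to 2011 to 3038 RPM. Macrophage markers summed to 24.2 and 21.7 RPM in the heterozygous and to 303 and 94.3 RPM in the labelled knockout libraries, and Leydig markers to 5.72 and 3.16 against 35.4 and 15.2 RPM. Spermatogonial markers summed to 113 and 83.5 against 129 and 120.4 RPM. Elongating spermatid markers (the transition protein and protamine genes Tnp1, Tnp2, Prm1, Prm2 and Prm3) summed to 1998 and 3754 RPM in the heterozygous and 1478 and 1124 RPM in the labelled knockout libraries. All 5 lay below without overlap, beside 15.0% of tested genes, with a median log2 difference of -1.03. Each had an unadjusted limma p under 0.05, beside 8.08% of tested genes, and 0 passed the limma adjusted threshold. Of the 10 macrophage markers 9 lay above without overlap, as did 3 of the 4 Leydig markers tested and 4 of the 8 round spermatid markers. So did 2 of the 6 spermatogonial, 1 of the 6 spermatocyte and 1 of the 3 Sertoli markers tested, beside 23.5% of tested genes. Sertoli markers stayed between 5.20 and 8.87 RPM, with Amh at 0 reads in every library. In bulk samples such as these, fewer cells of a type and less RNA per cell cannot be told apart.

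Catsperg1 and Catsperg2 are shown first as sequence, because their reads are the hardest to assign. The genes are neighbouring copies on chromosome 7, both on the minus strand and 483 kb apart in the mm10 build. Their principal transcripts in GENCODE M21, each of 29 exons, aligned over 3656 bases with 96.6% identity, and the longest identical run within the coding sequence was 341 bases. Of all 50-base windows of the Catsperg1 transcript, 41.0% occurred unchanged in that of Catsperg2, as did 21.3% of the 100-base and 10.7% of the 150-base windows. Neither the read length nor the rule for reads that fit both places is given in the sources used here, so their separate values are uncertain. The 90-base coding window with the most differences holds 12 of them, shown in capitals, and its reads can be told apart:
Catsperg1 exon 17, chr7:29191659-29191748, minus strand: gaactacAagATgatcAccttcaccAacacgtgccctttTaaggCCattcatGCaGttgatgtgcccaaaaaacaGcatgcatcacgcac
Catsperg2 exon 17, chr7:29706514-29706603, minus strand: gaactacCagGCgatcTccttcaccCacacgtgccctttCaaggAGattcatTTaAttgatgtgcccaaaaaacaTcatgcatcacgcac
Counted from the first base of this window, the first and last differences from Catsperg1 to Catsperg2 are A8C and G76T.

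Promoter sequences of 6 of the 10 members were found in RefSeq tables (GRCm38.p6, 8 windows of 300 bases). The 250 bases before the start are shown for 4 genes, chosen by their levels: Catsper3 and Catsper4, lowest in heterozygous library 1, and Catsperb and Catsperg1, which were not. Catsper1 and Kcnu1 were also lowest in that library but had no window, and the windows of Catsper2 and Catsperd are not shown. No link between promoter sequence and level was tested. Capitals mark matches to the motifs searched.
Catsper3 promoter, chr13:55784329-55784578, plus strand: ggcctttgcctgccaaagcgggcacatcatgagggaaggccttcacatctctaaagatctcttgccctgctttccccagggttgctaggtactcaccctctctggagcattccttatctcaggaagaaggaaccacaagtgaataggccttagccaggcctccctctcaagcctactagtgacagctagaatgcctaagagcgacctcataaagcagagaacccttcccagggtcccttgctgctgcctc
Catsper4 promoter, chr4:134227384-134227633, minus strand: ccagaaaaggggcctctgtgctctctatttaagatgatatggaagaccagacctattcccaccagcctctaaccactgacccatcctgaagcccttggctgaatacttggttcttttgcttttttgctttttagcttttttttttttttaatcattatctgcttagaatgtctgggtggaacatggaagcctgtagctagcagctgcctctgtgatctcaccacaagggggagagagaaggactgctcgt
Catsperb promoter, chr12:101404423-101404672, plus strand: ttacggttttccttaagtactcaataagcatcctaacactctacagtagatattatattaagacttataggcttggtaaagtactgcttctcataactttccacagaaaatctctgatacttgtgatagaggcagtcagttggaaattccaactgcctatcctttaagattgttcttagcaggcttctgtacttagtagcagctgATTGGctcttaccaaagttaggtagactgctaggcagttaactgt
Catsperg1 promoter, chr7:29214034-29214283, minus strand: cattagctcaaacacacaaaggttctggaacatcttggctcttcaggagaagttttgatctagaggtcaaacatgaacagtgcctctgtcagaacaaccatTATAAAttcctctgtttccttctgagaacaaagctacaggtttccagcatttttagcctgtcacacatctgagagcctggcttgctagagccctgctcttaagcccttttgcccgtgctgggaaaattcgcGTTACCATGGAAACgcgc
Matches were sought on both strands. The Catsperg1 window shown, 1 of its 2 in the table, held an X-box, the element bound by RFX factors of ciliated and germ cells, whose first base lies 18 bases before the start. Its letters there are GTTACCATGGAAAC, and the search, which allowed any base at 4 of these positions, matched 0.451% of 32851 windows. Catsperg1 also held the letters TATAAA of the TATA element, which 13.6% of windows hold, with the first base 149 bases before the start. A CCAAT box, searched as CCAAT, lay 45 bases before the start of Catsperb, on the strand opposite to the one printed, and occurred at 2 places before Catsper2. It is common, with matches in 37.4% of windows. The cyclic AMP response element TGACGTCA, found in 1.79% of windows, was in no member window. Its core ACGTCA, which the full element contains, lay before a start of Catsperd and in 7.51% of windows. The windows shown of Catsper3 and Catsper4 held none of these motifs. CpG content differed between the member windows: that of Catsper2 had 41 CpG sites, more than 96.5% of windows, where the median was 7. The windows of Catsperd had 29 and 12, those of Catsperg1 9 and 8, and those of Catsper3, Catsper4 and Catsperb 3, 2 and 1. Catsper2 starts head to head with Pdia3, a chaperone gene, and the listed genes overlap by 18 bases.

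Of the pore genes, Catsper2 was read most. It lies on chromosome 2 from 121392631 to 121413792 (minus strand, 13 exons in its principal transcript) and was at 639 and 528 RPM in the heterozygous and 589 and 651 RPM in the labelled knockout libraries. The groups overlapped, and the lowest and highest library differed by 1.23-fold. The log2 difference was 0.09 (SE 0.20, 95% confidence interval -0.35 to 0.53), and it was -0.047 without heterozygous library 2.

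Catsper1 encodes the pore protein with the histidine-rich start and lies on chromosome 19 from 5335741 to 5344153 (plus strand, 12 exons). It was at 109 and 164 RPM in the heterozygous and 133 and 122 RPM in the labelled knockout libraries. Both labelled knockout values fell between the heterozygous ones. Its log2 difference was -0.07 (SE 0.26, interval -0.65 to 0.51), and it was 0.22 without heterozygous library 2.

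Catsper3 lies on chromosome 13 from 55784568 to 55808998 (plus strand, 8 exons) and was at 178 and 237 RPM in the heterozygous and 226 and 225 RPM in the labelled knockout libraries. Catsper4 lies on chromosome 4 from 134211970 to 134227383 (minus strand, 11 exons) and was at 158 and 239 against 201 and 202 RPM. For both genes the labelled knockout libraries were nearly equal and lay between the heterozygous ones. The log2 differences were 0.14 (SE 0.23) for Catsper3 and 0.05 (SE 0.25) for Catsper4, and they were -0.073 and -0.24 without heterozygous library 1. The spread between the 2 heterozygous libraries in these genes exceeds counting error: in library 1 the 913 reads of Catsper4 have a 95% Poisson interval of 148 to 169 RPM, against 233 to 244 RPM in library 2. Such intervals cover counting error only, since PCR copies without molecular identifiers are not independent molecules.

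**Figure D1:**
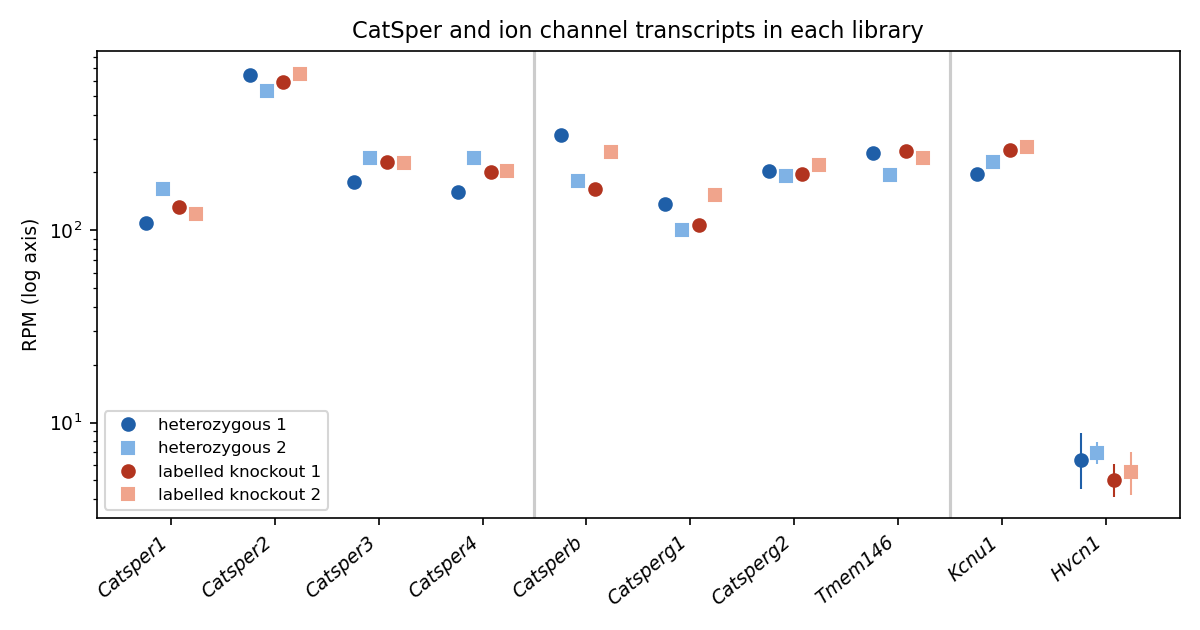
RPM of each member (log axis) in the 4 libraries, with 95% Poisson intervals of the reads as vertical lines, hidden by the point where short. Grey lines separate pore genes, accessory genes and the potassium and proton channels. Catsper2 lies highest, at 528 to 651 RPM, and Hvcn1 lowest, at 5.01 to 6.94 RPM.

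Among the accessory genes, Catsperb varied most. It lies on chromosome 12 from 101404673 to 101626009 (plus strand, 27 exons) and encodes a membrane protein of the complex with a large extracellular part. It was at 315 and 181 RPM in the heterozygous and 165 and 255 RPM in the labelled knockout libraries. Heterozygous library 1 and labelled knockout library 2 were the high ones, so the groups overlapped and the range was 1.91-fold. Its log2 difference was -0.22 (SE 0.31, interval -0.89 to 0.46), and it was 0.18 without heterozygous library 1 and 0.098 without labelled knockout library 1.

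Catsperg1 (chromosome 7, 29181321 to 29214035, minus strand) was at 137 and 100.3 RPM in the heterozygous and 107 and 152 RPM in the labelled knockout libraries. Its high libraries were the same pair as for Catsperb. The log2 difference was 0.12 (SE 0.27), and it was -0.11 without heterozygous library 2 and -0.13 without labelled knockout library 2. Catsperg2 (chromosome 7, 29697219 to 29727015, minus strand), the copy of Catsperg1 shown above, was at 202 and 191 against 197 and 220 RPM. It had the narrowest range of the 10 genes, 1.15-fold, with a log2 difference of 0.08 (SE 0.22).

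The balance between the copies can be read within a library, where scaling cancels. Catsperg2 held 59.6% of the reads of the pair in heterozygous library 1 (95% Clopper-Pearson interval 57.4% to 61.8%) and 65.6% in library 2 (64.7% to 66.6%). It held 64.9% in labelled knockout library 1 (63.7% to 66.0%) and 59.1% in library 2 (57.6% to 60.6%). Catsperg2 was the larger share in all 4 libraries, at 62.3% ± 3.41 (SD, n = 4 libraries of both groups), and each group held both a lower and a higher library.

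Tmem146, the gene of CatSper delta, lies on chromosome 17 from 56628143 to 56664456 (plus strand, 22 exons). It was at 252 and 194 RPM in the heterozygous and 259 and 237 RPM in the labelled knockout libraries. Heterozygous library 2 was the low library, and the other 3 were close together. The log2 difference was 0.17 (SE 0.23), and it was -0.025 without heterozygous library 2.

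Kcnu1 and Hvcn1 were the members whose groups did not overlap. Kcnu1, the SLO3 potassium channel gene (chromosome 8, 25849623 to 25937933, plus strand, 27 exons), was at 196 and 225 RPM in the heterozygous and 263 and 271 RPM in the labelled knockout libraries, 211 ± 20.6 against 267 ± 5.39 RPM (SD, n = 2). Both labelled knockout libraries were the higher ones. This log2 difference of 0.34 (SE 0.21, interval -0.13 to 0.82) had a limma adjusted p = 0.701 and did not pass. Lrrc52, which encodes the auxiliary subunit of this channel and comes from a context list, was at 22.2 and 35.7 against 37.3 and 36.3 RPM. It too had no overlap, by a margin of less than 1 RPM, and did not pass (log2 difference 0.39, SE 0.33, limma adjusted p = 0.794). The labelled knockout libraries also had the lower sums of elongating spermatid markers and the higher sums of macrophage and Leydig markers, and the part of these in the level of Kcnu1 was not tested.

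Hvcn1 (chromosome 5, 122206804 to 122242297, plus strand) was at 6.41 and 6.94 RPM in the heterozygous and 5.01 and 5.50 RPM in the labelled knockout libraries. These values rest on 37, 235, 106 and 62 reads, and their 95% Poisson intervals overlap across the groups, from 4.51 to 8.83 RPM in heterozygous library 1 and from 4.10 to 6.06 RPM in labelled knockout library 1. A log2 difference of -0.35 (SE 0.46, interval -1.36 to 0.67, limma adjusted p = 0.888) resulted. The 3' end of Hvcn1 overlaps that of Tctn1, on the other strand, by 1011 bases, and Tctn1 was at 22.5 to 34.1 RPM. The protocol keeps no strand, so reads of the overlap cannot be told apart. Hvcn1 is also known from phagocytes, whose markers were higher in the labelled knockout libraries where Hvcn1 was lower, and their part in its level was not tested.

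The comparison of labelled knockout with heterozygous spermatids asked whether the labelled loss of Wfdc15a goes with a change in these transcripts. No member passed (0 of 10, limma with Benjamini-Hochberg adjustment over all 15888 genes, adjusted p from 0.701 to 0.976), where 0% of all genes passed. At an unadjusted p under 0.05 there were 0 members, where the background was 8.08%, and by voom on the recovered reads 0 members passed, where 0% of all genes did, and 0 had an unadjusted p under 0.05, where 12.3% did. Both labelled knockout libraries lay above both heterozygous ones for 1 member, Kcnu1, beside 23.5% of tested genes. They lay below for 1, Hvcn1, beside 15.0%. Most members are more abundant than most tested genes. Of the 2440 tested genes at a mean of 100 RPM or more, 91 had an unadjusted limma p under 0.05. In that set 303 lay above and 405 below without overlap. An exact permutation test of 2 against 2 libraries cannot go below p = 0.33. The counts of members without overlap became 2 to 5 above and 1 to 4 below when 1 library was left out, which leaves a group of 1. The share of all tested genes was not computed for that setting, so nothing about the members is read from these counts.

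The differences of the members were small beside their own spread, as were those of most tested genes. They ran from -0.35 to 0.34 on the log2 scale with a median of 0.09, beside 0.07 over all tested genes, and 7 were above 0. For 8 of the 10 genes the group difference was smaller than the larger of the gaps between replicates, as for 74.6% of tested genes and 82.9% of the 2440 tested genes at a mean of 100 RPM or more. The median gap between the heterozygous libraries was 0.40 for the members and 0.49 for tested genes, and between the labelled knockout libraries 0.13 and 0.36. Over the 2440 genes at a mean of 100 RPM or more these gaps were 0.295 and 0.188, with a median log2 difference of -0.017. Beside that set, the gap of the members was larger between the heterozygous libraries and smaller between the labelled knockout ones. The intervals still allow changes of some size: as a ratio of labelled knockout to heterozygous, that of Catsper2 runs from 0.787 to 1.44, that of Catsper1 from 0.637 to 1.43 and that of Catsperb from 0.539 to 1.37.

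**Figure D2:**
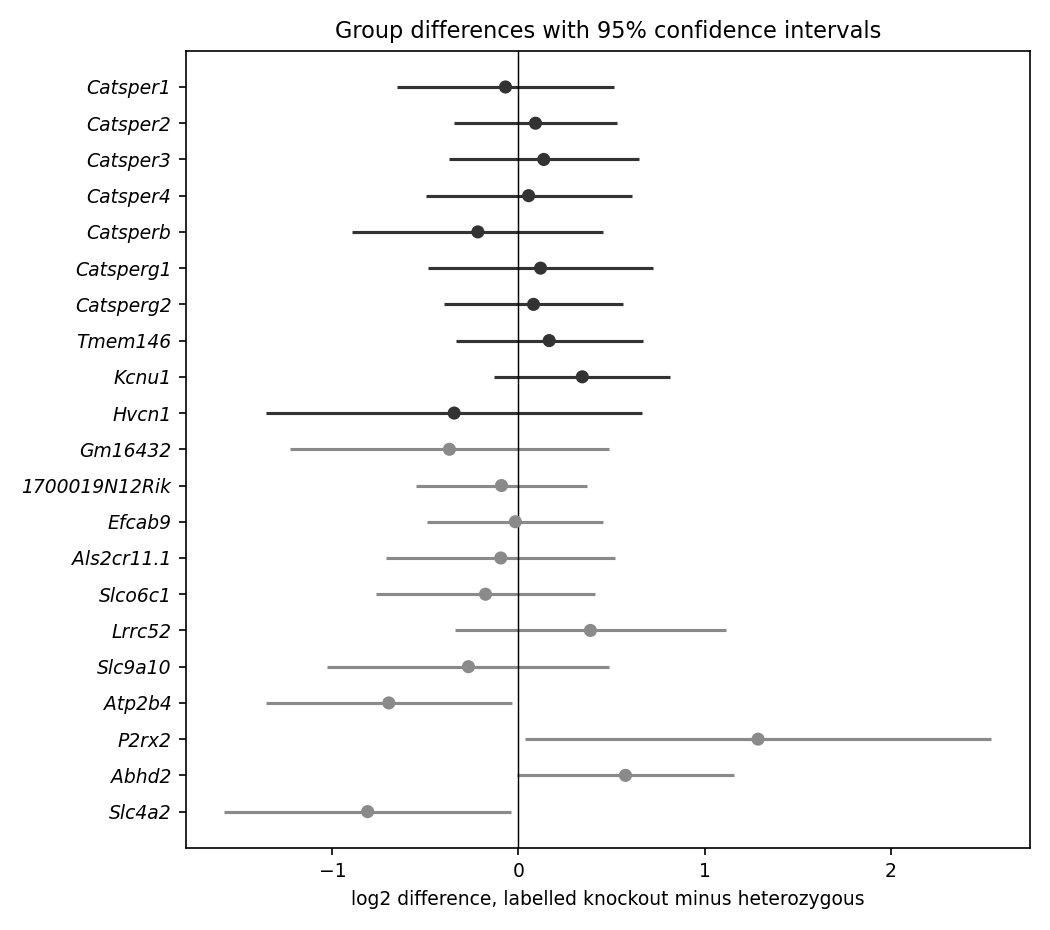
Log2 difference, labelled knockout minus heterozygous, with 95% confidence intervals from limma, for the 10 members (dark) and 11 context genes (grey). All intervals of the members include 0, with differences from -0.35 for Hvcn1 to 0.34 for Kcnu1. Those of Atp2b4, Slc4a2 and P2rx2 do not before adjustment, but these genes were picked for the smallest p of their list.

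RPM is not adjusted for length, so levels were compared between genes per kilobase of exon, using the merged exons of each gene in GENCODE M21. Catsper2 (163 ± 15.2 RPM per kb, SD, n = 4 libraries of both groups) and Catsper3 (159 ± 19.5) stood at the top. On this length each was the higher in 2 of the 4 libraries. Catsper4 followed at 95.2 ± 15.7, below Catsper3 in all 4 libraries. Tmem146 (65.7 ± 8.17), Kcnu1 (63.9 ± 9.25), Catsper1 (60.2 ± 10.7) and Catsperb (41.4 ± 12.6) came next, and each overlapped the next in this order. Catsperg2 (28.8 ± 1.74) was above Catsperg1 (17.6 ± 3.48) in every library, with no overlap, and Hvcn1 came last at 1.67 ± 0.245. By this measure Catsper2 exceeded 97.5% and Hvcn1 34.9% of 15376 genes with a length. Merged exons include those of retained introns. With the length of the principal transcript, a choice made after seeing the data, Catsper2 lay at 235 to 289.6 (mean 268) and Catsper3 at 135 to 181 (mean 165) RPM per kb. Catsper2 was then above Catsper3 in all 4 libraries, with no overlap, so their order depends on the length used. Catsperg1 came to 33.8 RPM per kb, and 8 of the 10 places in the order stayed, Catsper1 and Catsperb changing places.

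**Figure D3:**
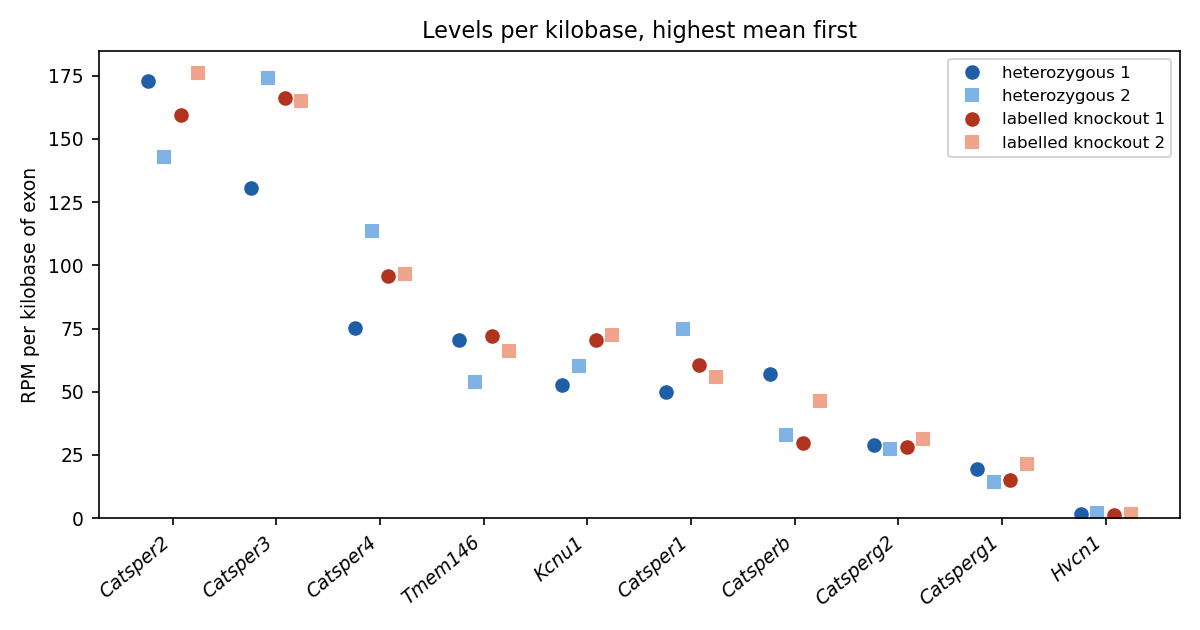
RPM per kilobase of merged exon (linear axis) for the 10 members in each library, ordered by the mean over the 4 libraries. On this length Catsper2 and Catsper3 lie at 130.4 to 176 and cross, and Catsperg2 lies above Catsperg1 in every library.

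The 4 pore proteins occur together in the channel, but their transcripts were not level. Per kilobase of merged exon, Catsper2 made up 28.3% to 40.4% of the pore transcripts of a library, Catsper3 30.4% to 34.5%, Catsper4 17.6% to 22.5% and Catsper1 11.3% to 14.8%. These shares depend on the length used. Per kilobase of principal transcript Catsper2 lay at 235 to 289.6 and Catsper3 at 135 to 181, and shares were not computed for that length. The highest share of Catsper2 and the lowest of Catsper3 and Catsper4 were in heterozygous library 1, and the reverse for Catsper2 and Catsper4 in heterozygous library 2. Catsper3 and Catsper4 kept nearly the same ratio, from 0.994 to 1.13 in RPM, while the ratio of Catsper2 to Catsper1 ran from 3.22 to 5.87.

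Another pattern lay between libraries of a group rather than between the groups. Catsper1, Catsper3 and Catsper4 were each highest in heterozygous library 2 and lowest in heterozygous library 1. In contrast, Catsper2, Catsperg1, Catsperg2 and Tmem146 were each lowest in heterozygous library 2, and Catsperb was highest in heterozygous library 1. Heterozygous library 2 was the highest for 4 of the 10 members, with Hvcn1, beside 18.3% of tested genes. It was the lowest for 4, beside 30.4%. The summed RPM of Catsper2 and the accessory genes, divided by that of Catsper1, Catsper3 and Catsper4, was 3.48 in heterozygous library 1, 2.76 in labelled knockout library 2, 2.35 in labelled knockout library 1 and 1.87 in heterozygous library 2. This grouping was chosen after the values were seen and has no test. The labelled knockout values lay inside the range of the heterozygous ones.

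The ratio fell in the order of rising depth, from 5774112 to 33853604 reads. Heterozygous libraries 1 and 2, whose values set the grouping, are also the shallowest and the deepest. The ends of this order were therefore built in, and the order is no separate observation about depth. Spermatocyte markers (Sycp1, Sycp3, Spo11, Dmc1, Hormad1 and Piwil1) summed to 351 and 373 RPM in heterozygous library 1 and labelled knockout library 2, where the ratio was high, and to 227 and 192 RPM in labelled knockout library 1 and heterozygous library 2. Elongating spermatid markers summed to 1998 and 3754 RPM in heterozygous libraries 1 and 2 and to 1478 and 1124 RPM in labelled knockout libraries 1 and 2. Within each group the library with the higher ratio had the lower sum. Across the groups this order did not hold, since both heterozygous sums were above both labelled knockout ones. The share of Catsperg2 in its pair was lower in heterozygous library 1 and labelled knockout library 2 (59.6% and 59.1%). It was higher in labelled knockout library 1 and heterozygous library 2 (64.9% and 65.6%). Both genes of the pair are part of the ratio, so this share is not independent of it. The part of depth, of spermatocyte RNA or of spermatid stage in the ratio was not tested.

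**Figure D4:**
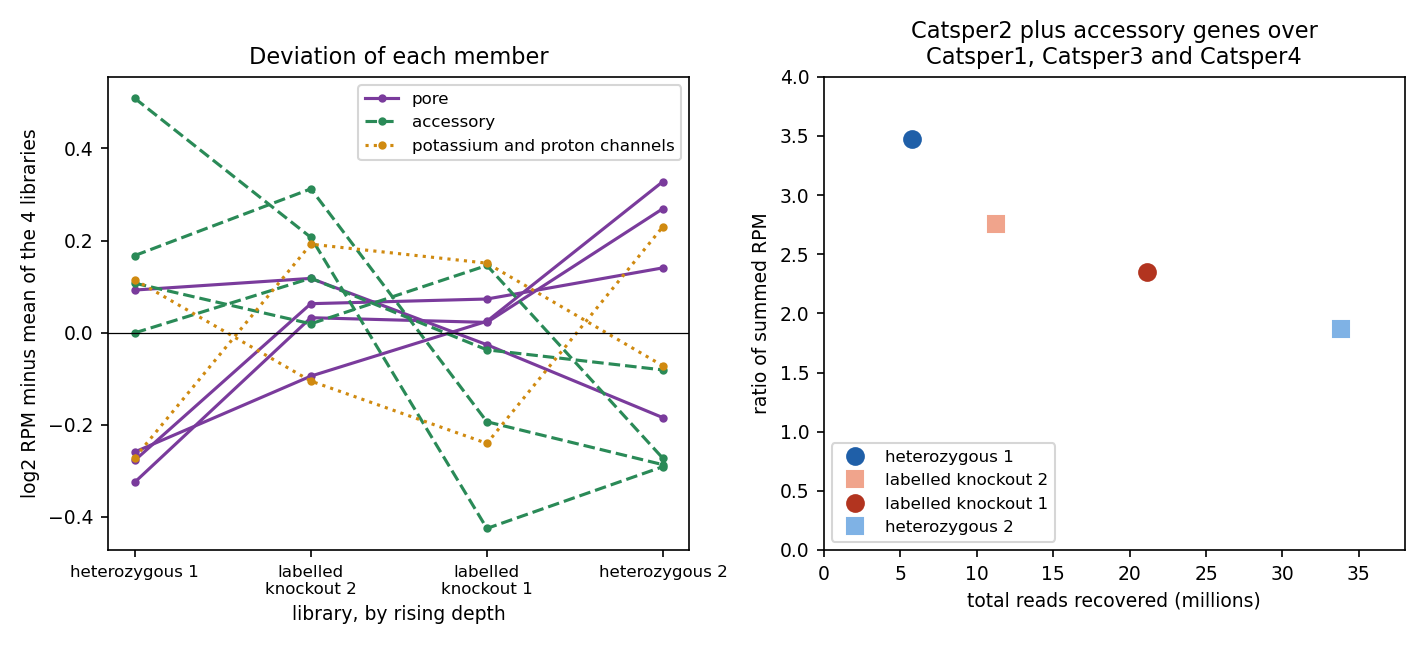
Left, log2 RPM of each member minus its mean over the 4 libraries, with libraries ordered by depth; lines join the values of a gene and show no time course. Right, the ratio of summed RPM of Catsper2, Catsperb, Catsperg1, Catsperg2 and Tmem146 to that of Catsper1, Catsper3 and Catsper4 against total reads, falling from 3.48 to 1.87. The grouping was chosen from the values of the shallowest and deepest libraries, so the ends of this fall were built in.

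Other genes of the CatSper complex were taken from a list of 8 symbols, of which 5 were found, as 6 rows of the table. None of the 6 passed, and the median log2 difference was -0.09. In either direction 0 were without overlap, beside 23.5% above and 15.0% below over all tested genes. Efcab9, the calcium sensor of the complex, was at 285 and 301 RPM in the heterozygous and 321 and 262 RPM in the labelled knockout libraries (log2 difference -0.02, SE 0.21). Catsperz, listed as 1700019N12Rik and needed to order the channel along the tail, was at 455 and 434 against 469 and 371 RPM (log2 difference -0.09, SE 0.21). Both were even across libraries, unlike Slco6c1, a transporter of the complex, which was at 464 and 283 against 281 and 366 RPM. Catspere2, listed as Gm16432, was at 34.5 and 17.1 against 18.0 and 19.6 RPM, and C2cd6 had 2 rows. Its row Als2cr11.1 was at 53.3 and 48.3 against 43.2 and 52.3 RPM. The row Als2cr11.2, added with its values already known, held 827 and 640 against 642 and 811 RPM (log2 difference -0.01, SE 0.21). Heterozygous library 1 was the highest in Slco6c1, Gm16432 and both rows of C2cd6, as for Catsperb. The share of all tested genes highest in that library was not computed, so nothing is read from this likeness.

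Genes of ion transport and pH control in sperm were taken from a list of 32 symbols. All 32 were found and 28 passed the filter, with a median log2 difference of 0.04. None passed the adjusted threshold, 1 was higher and 2 were lower at an unadjusted p under 0.05, and 6 lay above and 7 below without overlap, beside the 8.08%, 23.5% and 15.0% of tested genes given above. Slc9c1, the sperm sodium/proton exchanger, listed as Slc9a10, was at 450 and 207 RPM in the heterozygous and 205 and 313 RPM in the labelled knockout libraries. It was high in the same pair of libraries as Catsperb and Catsperg1 (log2 difference -0.27, SE 0.34). P2rx2, an ATP-gated cation channel gene, was at 3.46 and 13.1 against 18.5 and 14.6 RPM (log2 difference 1.29, SE 0.57, limma adjusted p = 0.607). Abhd2, the lipid hydrolase through which progesterone is reported to act on CatSper, was at 124 and 184 against 258 and 196 RPM (log2 difference 0.58, SE 0.26, limma adjusted p = 0.616). On the lower side, Atp2b4, the calcium pump of the sperm membrane, was at 53.9 and 40.8 against 30.1 and 27.9 RPM (log2 difference -0.70, SE 0.30, limma adjusted p = 0.601). Slc4a2, an anion exchanger gene, was at 23.7 and 24.5 against 16.3 and 11.6 RPM (log2 difference -0.81, SE 0.35, limma adjusted p = 0.60). P2rx2, Abhd2, Atp2b4 and Slc4a2 were named for the smallest p of the 28 tested, so their lack of overlap follows from the choice. The macrophage and Leydig markers counted above were without overlap on the higher side, and the elongating spermatid markers on the lower side. The part of these cells and stages in the differences was not tested.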

How the data were processed

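The unit of the authors' deposited table is log2 RPM, not divided by gene length. The submitters' processing notes name HISAT2 2.1.0, Trim Galore 0.6.6, FastQC 0.11.8 and the mm10 build; for the counter and annotation, none is given in the sources used here. Values above the lowest of a library step by whole reads if the lowest is taken as 0.9 of a read (99.7% to 100.0% within 0.01 of a read), which gave reads and totals. Counting intervals cover counting error only.

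Sample titles gave the groups. A gene needed 1 RPM in 2 or more libraries to be compared with limma 3.58.1 (R 4.3.3) on the deposited values, with a mean-variance trend, two-sided, at a Benjamini-Hochberg adjusted p under 0.05. The code was tested on simulated data. Means are given with SD. GENCODE M21 gave exon lengths and transcripts, aligned with Biopython 1.88, and RefSeq gave promoters. Older symbols were matched through RefSeq at overlapping positions. SciPy 1.17.1 gave intervals.

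The text names all members, Wfdc15a and, from each context list, the 4 genes with the smallest p and Lrrc52, Efcab9, Catsperz and Slc9c1. The members and lists were chosen with earlier results of these data known. Alternatives were other scalings, pseudocount, filters, trend, voom, lengths, each library left out and a replicate block.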

Additional observations from a re-analysis of the deposited data

How the results depend on the processing

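No member passed under any of the 12 alternative fits, and 109 of 120 differences of single members kept their direction. The fits with other filters, without a variance trend and with a replicate block leave each difference unchanged by construction. They could not reverse a direction, so this count overstates how stable the directions are. The number of all genes passing was 1 with log2(RPM + 1), 180 without a filter and 0 to 558 when 1 library was left out, where only the other group gives a spread, so that the lone library is assumed to vary like it. Members without overlap numbered 2 to 5 above and 1 to 4 below when 1 library was left out, where a group of 1 overlaps less by construction. The same share over all tested genes was not computed. Catsper4 differed by -0.0057 with median-ratio scaling and -0.020 with voom. With 1 library left out, log2 differences ran from -0.36 to 0.22 (without heterozygous library 2) for Catsper1, from -0.047 (without heterozygous library 2) to 0.23 for Catsper2, from -0.073 (without heterozygous library 1) to 0.35 for Catsper3 and from -0.24 (without heterozygous library 1) to 0.35 for Catsper4. They ran from -0.62 to 0.18 (without heterozygous library 1; 0.098 without labelled knockout library 1) for Catsperb, from -0.13 (without labelled knockout library 2; -0.11 without heterozygous library 2) to 0.37 for Catsperg1 and from -0.025 (without heterozygous library 2) to 0.36 for Tmem146. The cause was not tested. Within heterozygous library 2, 6 of the 10 places in the order per kilobase were those of the mean. With the replicate number as a block 66 genes passed, 0 of them members. Deviations of same-numbered libraries correlated at r = -0.076 across genes. This value cannot decide whether a number pairs samples, and the labels do not say. A count model of edgeR was not run, since the deposited values are on a log scale. Depth limits Hvcn1 most, at 37 reads in heterozygous library 1.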
